A study of Mus musculus with 18 samples.

Results

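The genes described are 10 extracellular matrix genes of the mouse: Postn, Tnc and Fn1, which encode matrix glycoproteins, Lox, Loxl1, Loxl2 and Loxl3, which encode lysyl oxidases, and Fbn1, Fbn2 and Eln, which encode components of elastic fibres. They were chosen by name, with earlier results of these data known. Each matched 1 symbol among the 26157 of the day-2 table and the 54114 of the table of days 8 and 16. The study followed mouse embryonic stem (ES) cells with a tdTomato reporter at Msx1, a homeobox gene of craniofacial mesenchyme, through embryoid bodies (EBs, aggregates of differentiating cells) formed in hanging drops. It asked how forced expression of Dlx2, a homeobox gene of the pharyngeal arches, bears on early differentiation into ectomesenchyme (mesenchyme that derives from the neural crest), and how Msx1-positive and Msx1-negative cells differ later. RNA was sequenced in 7 groups of 2 libraries. At day 2 these were EBs of a line with inducible Dlx2 and EBs of a line with inducible GFP. Both day-2 groups were read as induced with 1 µg/ml doxycycline, since the columns name the line and not the drug. At days 8 and 16 they were Msx1-positive and Msx1-negative cells sorted by flow cytometry from EBs of the inducible Dlx2 line given doxycycline. The last group was ES cells labelled wild type and untreated. All lines carried the Msx1 reporter and came from cells kept in serum with LIF. No sorted group lacked the Dlx2 transgene or doxycycline. The labels name neither the promoter of the transgene nor the number of clones per line. The labels do not say whether the libraries of a group came from separate cultures, so p-values measure only the spread between these libraries, which may be technical.

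The day-2 libraries held between 26211608 and 41552818 counts each, and those of days 8 and 16 with ES between 53797597 and 107770730. Dlx2 itself stood at 4344 and 4720 CPM (counts scaled to library depth) in Dlx2 EBs, against 0.0812 and 0.0808 CPM in GFP EBs. In the sorted cells it differed between the fractions too, at 1137 and 1270 CPM in Msx1-positive cells, against 269 and 272 CPM in Msx1-negative cells, at day 8, and at 288 and 341 against 131 and 146 CPM at day 16. Both differences were called by edgeR's quasi-likelihood test, at 4.45-fold higher in Msx1-positive cells at day 8 (adjusted p = 3.63e-11) and 2.27-fold higher at day 16 (adjusted p = 1.35e-08), and their part in the members' differences was not tested. The libraries labelled ES held 219 and 222 CPM of Dlx2, although they are labelled wild type and untreated, and this stands beside every direction drawn against them below. They also held all 8 pluripotency markers, with a summed level of 6504 to 6647 CPM. Msx1 stood at 73.7 and 81.6 CPM in Msx1-positive cells, against 0.818 and 0.752 CPM in Msx1-negative cells, at day 16, and at 40.9 and 46.8 against 1.9 and 1.02 CPM at day 8. In these bulk libraries, fewer cells of a type and less RNA per cell cannot be told apart.

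The matrix around connective tissue cells is built in layers. Fibronectin is laid down first and guides the assembly of other fibres. Fibrillins polymerise into microfibrils, on which elastin is deposited to form elastic fibres. Lysyl oxidases are copper-dependent enzymes that oxidise lysine side chains of collagens and elastin, so that the chains become joined by covalent crosslinks. Periostin and tenascin-C are matricellular proteins, which sit in the matrix and modulate how cells respond to it, and periostin is best known from periosteum, the periodontal ligament and heart valves.

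Levels below are CPM scaled by TMM, a correction for library composition. The 2 tables were scaled separately, so day-2 levels were not tested against the others. Where libraries are said not to overlap, the share of all genes without overlap was not counted. Changes are log2 fold changes ± standard error (SE) from edgeR's quasi-likelihood test, and a gene was called at a Benjamini-Hochberg adjusted p below 0.05 over all genes tested. With Dlx2 at day 2, 5 of the 9 members tested rose and 1 fell, where 34.1% of all genes were called higher and 33% lower. At day 8, 9 of 10 members were higher in the Msx1-positive than in the Msx1-negative fraction and 1 was lower, beside 30.4% and 24.3% of all genes. At day 16 all 10 members were higher in Msx1-positive cells and none was lower, beside 31.1% and 31% of all genes. The median log2 change of the members was 0.99 at day 2, 3.83 at day 8 and 4.28 at day 16, where the median over all genes tested was 0.024, 0.062 and -0.016. When counts were scaled by library size with no composition factor, the median over all genes became 0.2 at day 2 and 0.22 at day 8. The share of called genes that were higher then became 63.6% in place of 50.8% at day 2 and 66.8% in place of 55.6% at day 8, and no called member changed direction.

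**Figure D1:**
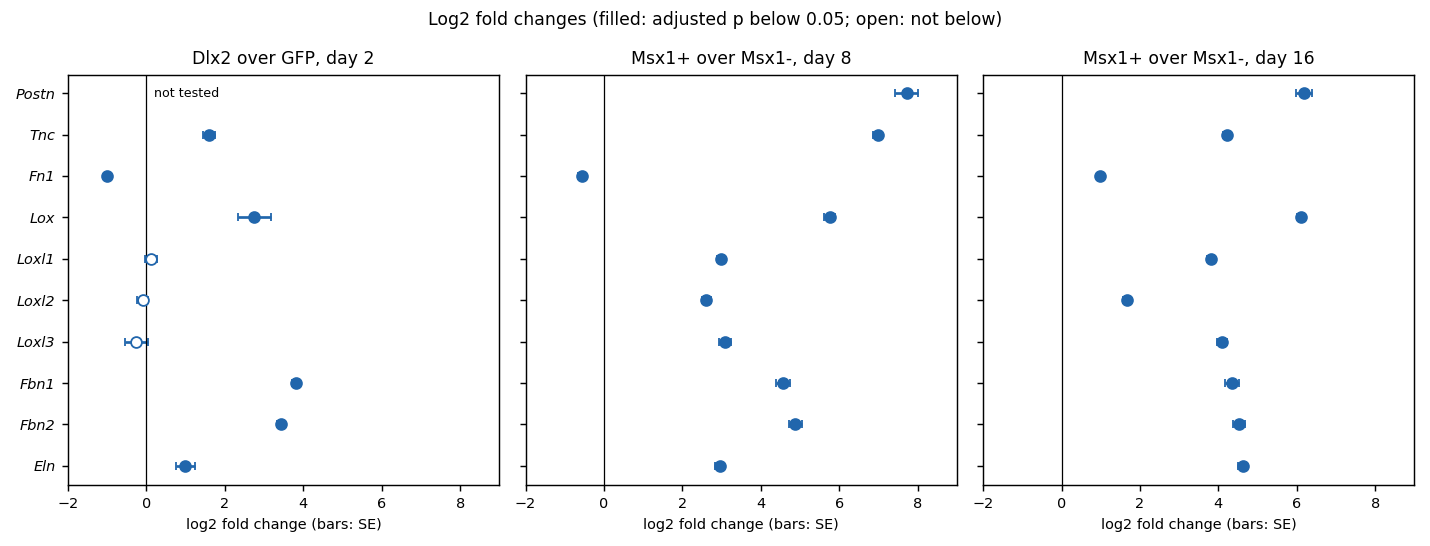
Log2 fold changes of the 10 genes (x axis, bars are SE) in Dlx2 over GFP EBs at day 2 and in Msx1-positive over Msx1-negative cells at days 8 and 16, from 2 libraries a group. Fn1 is the member to the left of 0 among those called at days 2 and 8, and all 10 genes lie to the right of 0 at day 16.

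Markers of other cell types moved in the same comparisons. In Msx1-positive cells, all 8 mesenchyme markers (among them Prrx1, Twist1 and Col1a1) were higher at both days. Their sums were 889 to 1031 against 35.1 to 35.4 CPM at day 8 and 10519 to 11498 against 564 to 630 CPM at day 16. The matrix genes Col1a1, at a mean of 7365 against 298 CPM, and Col3a1, at 2339 against 115 CPM, made up most of the day-16 Msx1-positive sum. Pdgfra stood closer, at 200 against 147 CPM at day 16. All 8 pluripotency markers were lower in Msx1-positive cells at both days, with sums of 1203 to 1237 against 4868 to 4927 CPM at day 8 and 220 to 233 against 3502 to 3704 CPM at day 16. All 6 smooth muscle markers were higher in Msx1-positive cells at day 16, with sums of 1099 to 1169 against 145 to 146 CPM. Acta2, with 126190 counts over the Msx1-positive and 13539 over the Msx1-negative libraries, made up most of both sums. The 10 markers of extraembryonic endoderm, a lineage that makes basement membrane, summed to 222 to 230 CPM in Msx1-positive and 824 to 849 CPM in Msx1-negative cells at day 16, and 9 of them were called lower. At day 2 the mesenchyme markers summed to 266 to 277 CPM in Dlx2 EBs and 13.5 to 14.2 CPM in GFP EBs, with Lum at 0 in 1 library of each group. Pdgfra alone averaged 234 CPM in Dlx2 EBs, against 1.05 CPM in GFP EBs. Of the 7 mesenchyme markers tested, 6 rose and 1 fell, and Dcn stood at 0.229 CPM in Dlx2 EBs, against 1.01 CPM in GFP EBs. The 9 extraembryonic endoderm markers listed at day 2, without Ttr, summed to 62.3 to 64.3 CPM in Dlx2 EBs and 12.7 to 13.9 CPM in GFP EBs. Afp was at 0 in 1 GFP library. Of the 8 tested, 6 rose and none fell. Dab2, at a mean of 33.3 against 8.08 CPM, and Gata4, at 18.3 against 1.72 CPM, made up most of the sum. Cubn stood at 0.407 against 0.364 CPM and Sox17 at 0.773 against 0.365 CPM. The pluripotency markers, all detected, summed to 1069 to 1097 CPM in Dlx2 EBs and 5216 to 5262 CPM in GFP EBs. Endothelial markers, without Emcn, summed to 29 to 30.1 CPM in Dlx2 EBs and 120 to 125 CPM in GFP EBs. Of the 7 tested, 6 fell and 1 was not called. Pecam1 made up most of both sums, at a mean of 20.9 against 86 CPM. In the separately scaled ES libraries Pecam1 averaged 102 CPM. At day 16 the endothelial markers summed to 64 to 70.7 CPM in Msx1-positive and 242 to 265 CPM in Msx1-negative cells, with 2 of 8 called higher and 5 lower. Pecam1, at a mean of 9.63 against 135 CPM, made up most of that gap, while Kdr stood at 25.2 against 4.47 CPM and Emcn at 3.32 against 0.654 CPM. The blood markers summed to 112 to 120 CPM in Msx1-positive and 25.6 to 25.9 CPM in Msx1-negative cells at day 16, with 3 of 6 called higher and 1 lower. Runx1 made up most of the Msx1-positive sum, at a mean of 87.6 against 11.5 CPM, while Gata1 stood at 0.866 against 1.46 CPM and Spi1 at 0.0486 against 0.581 CPM. The cardiac markers summed to 13.9 to 14.1 and 9.52 to 11.5 CPM in the same groups, with 2 of the 5 tested called higher and 2 lower. No marker of the mesenchyme, pluripotency or extraembryonic endoderm lists was at 0 in a sorted library. The part of these cell types in the results below was not tested.

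**Figure D2:**
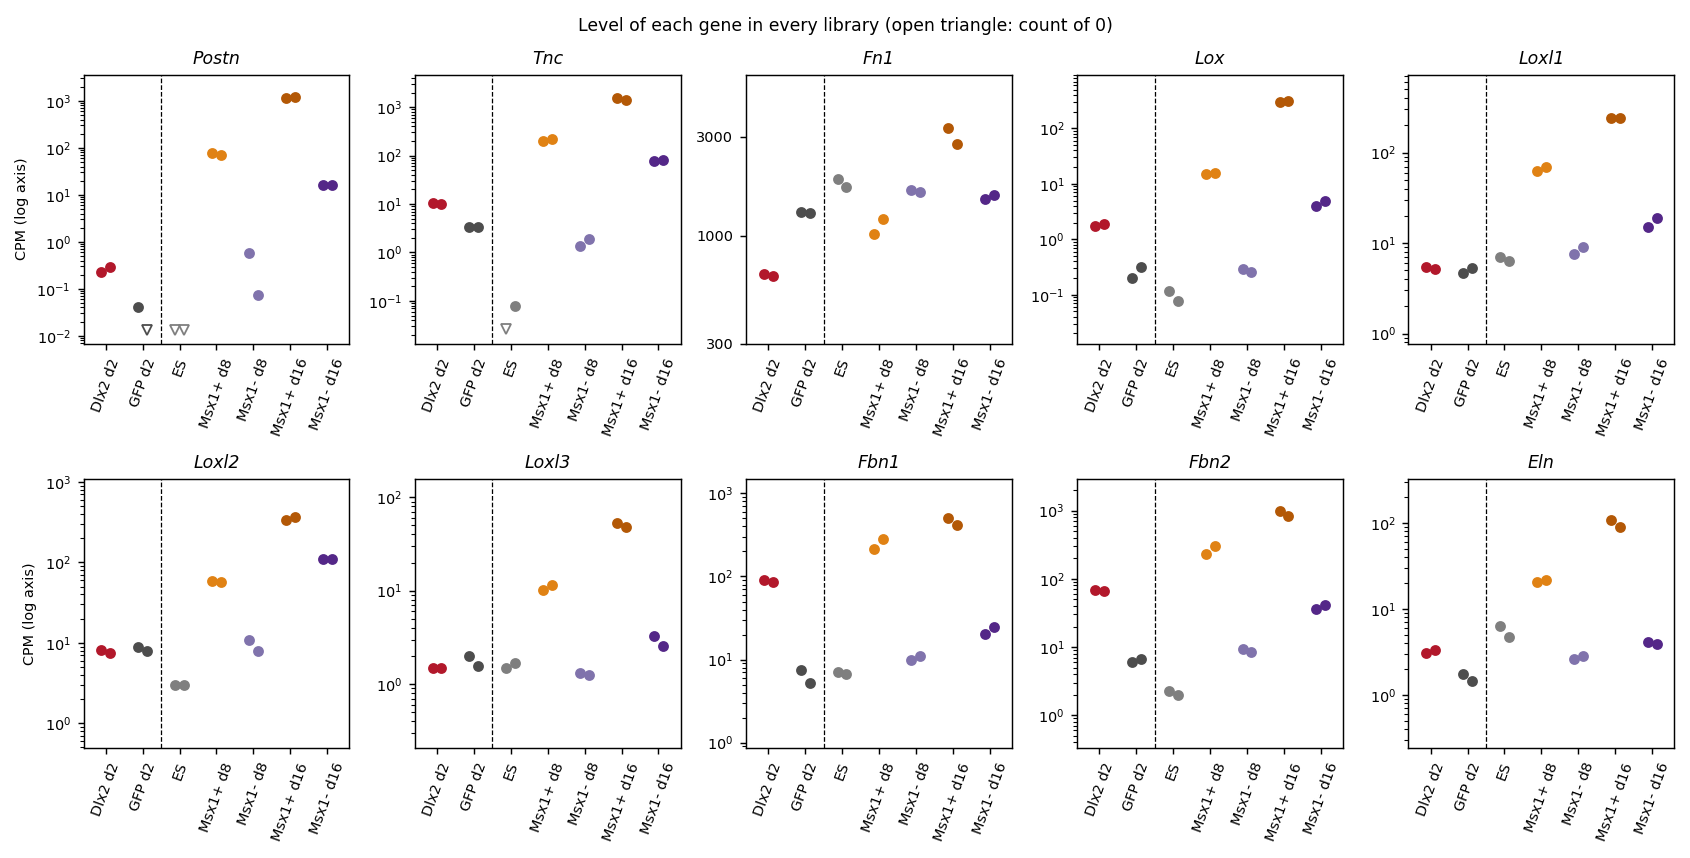
CPM (log axis) of each gene in every library, with the day-2 table left of the dashed line and the other table right of it; an open triangle marks a count of 0. Day-16 Msx1-positive libraries hold the highest level of every gene among the 5 groups right of the line, and Fn1 alone spans less than a factor of 10 there.

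Postn lies at chr3:54361109-54391037 on the plus strand (GRCm38) and encodes periostin. RefSeq places its start at more than one site, and the 250 bases before each are shown because this gene had the widest range of levels among the members; capitals mark TATAA, the core of a TATA box, found on either strand (RefSeq, GRCm38.p6).
Postn, chr3:54360857-54361106, plus strand: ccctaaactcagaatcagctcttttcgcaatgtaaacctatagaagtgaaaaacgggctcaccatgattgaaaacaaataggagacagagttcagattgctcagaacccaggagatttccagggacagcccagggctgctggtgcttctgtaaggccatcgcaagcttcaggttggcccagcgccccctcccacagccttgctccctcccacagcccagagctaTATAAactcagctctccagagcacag
Postn, upstream start, chr3:54359017-54359266, plus strand: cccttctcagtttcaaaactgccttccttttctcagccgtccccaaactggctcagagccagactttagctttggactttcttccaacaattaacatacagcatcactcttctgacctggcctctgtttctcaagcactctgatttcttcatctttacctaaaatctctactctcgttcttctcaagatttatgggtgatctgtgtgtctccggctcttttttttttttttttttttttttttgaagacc
In the first sequence TATAA begins 26 bases before the start, and the upstream one holds none. A forward TATAA that begins 20 to 35 bases before a start occurs in 3.17% of 32851 mouse promoter windows of the same length, and TATAA anywhere on either strand in 22.8%. TAATT, a core bound by homeodomain proteins, was searched on both strands as well. It is absent from the first sequence and occurs once in the upstream one, beside 25% of all windows.

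Postn had no count in the libraries labelled ES and became one of the most abundant members in Msx1-positive cells by day 16. It had 71647 and 77796 counts in day-16 Msx1-positive cells, against 986 and 1007 in Msx1-negative cells. At day 8 it had 5548 and 7917 counts in Msx1-positive cells, against 36 and 4 in Msx1-negative cells. The groups were far apart at both days, and the pair of day-8 Msx1-negative libraries differed from each other more than any other pair. As levels, day-16 cells held 1161 and 1213 CPM in the Msx1-positive and 16.1 and 16.5 CPM in the Msx1-negative fraction, and day-8 cells held 77.5 and 69.1 against 0.583 and 0.0739 CPM. Postn was higher in Msx1-positive cells by 6.18 ± 0.21 at day 16 (adjusted p = 2.79e-07) and by 7.72 ± 0.3 at day 8 (adjusted p = 9.02e-07, edgeR). The day-8 value was 9.88 without the first and 6.94 without the second Msx1-negative library. Against ES libraries with a count of 0, Postn was at least 40708-fold higher in day-16 and at least 2478-fold higher in day-8 Msx1-positive cells, and at least 559-fold and 11.8-fold higher in Msx1-negative cells of the same days, with a floor of 3 counts over the ES group. In Msx1-negative cells of day 8 that difference from ES was not called (adjusted p = 0.0624), and it was called without either Msx1-negative library, with a filter of at least 1 CPM in 2 libraries (adjusted p = 0.0419) and by DESeq2 (adjusted p = 0.000316). At day 2 Postn had 10 and 10 counts in Dlx2 EBs, against 1 and 0 in GFP EBs. It was too low to be tested there with the filter used. With no filter on low counts and by DESeq2 all 10 members were tested. Over the alternatives that kept all libraries, 5 to 6 members were called higher at day 2, the 6th being Postn. The ratio of the counts, scaled for depth, was 12.6, with a 95% counting interval from 2.01 to 520.

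Tnc, at chr4:63959785-64047015 on the minus strand, encodes tenascin-C, a large hexameric glycoprotein that counters firm adhesion of cells to fibronectin. The 250 bases before its outermost RefSeq start are shown for comparison with Postn, with TATAA in capitals.
Tnc, chr4:64047016-64047265, minus strand: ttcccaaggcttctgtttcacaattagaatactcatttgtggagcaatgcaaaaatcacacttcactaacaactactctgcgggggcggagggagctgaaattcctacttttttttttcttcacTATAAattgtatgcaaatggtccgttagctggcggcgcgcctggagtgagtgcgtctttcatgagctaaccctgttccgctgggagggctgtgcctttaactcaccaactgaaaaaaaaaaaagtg
Here TATAA begins 126 bases before the start, and 1 TAATT match begins at 229 bases. The window of a second RefSeq start, chr4:64046937-64047186, lies further into the gene and overlaps the first. It holds TATAA at 27 and at 205 bases, the latter being the same site as that at 126 bases above. The TAATT match lies outside this window, which holds no TAATT. No TAATT match overlapped a TATAA match in these windows. The promoter table held 3 of the 10 members, and the window of Fbn1, the remaining one, held neither motif.

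Tnc was the second most abundant member per length in Msx1-positive cells. It stood at 1567 and 1381 CPM in day-16 Msx1-positive cells, against 77.3 and 81.6 CPM in Msx1-negative cells. At day 8 it stood at 197 and 218 CPM in Msx1-positive cells, against 1.38 and 1.94 CPM in Msx1-negative cells. The fractions did not overlap, and the gap was narrower at day 16. The difference was 4.21 ± 0.094 at day 16 (adjusted p = 7.64e-14) and 6.98 ± 0.12 at day 8 (adjusted p = 2.48e-14), and it fell by 2.76 ± 0.15 between the days (adjusted p = 1.37e-08). At day 2 Tnc rose with Dlx2, at 10.4 and 10.1 CPM in Dlx2 EBs against 3.33 and 3.39 CPM in GFP EBs, a change of 1.6 ± 0.15 (adjusted p = 3.35e-09). The libraries labelled ES held 0 and 4 counts. Folds against them therefore rested on 1 library: the day-16 Msx1-positive value was 15.14 ± 0.22, and it was 14.16 without the first and 19.59 without the second ES library, while the day-8 Msx1-positive value of 12.31 ± 0.23 became 11.34 and 16.76. In Msx1-negative cells the values were 10.93 ± 0.25 at day 16 (9.95 and 15.37) and 5.33 ± 0.5 at day 8 (4.36 and 9.79), and all were called in each case.

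Fn1, at chr1:71585520-71653200 on the minus strand, encodes fibronectin and did not follow the other members. It was the most abundant member per length in every group, and it was high in ES cells already. Fn1 stood at 649 and 638 CPM in Dlx2 EBs, against 1305 and 1289 CPM in GFP EBs, at day 2. At day 8 it stood at 1012 and 1198 CPM in Msx1-positive cells, against 1660 and 1616 CPM in Msx1-negative cells. At day 16 the order was turned round, with 3307 and 2776 CPM in Msx1-positive cells, against 1499 and 1566 CPM in Msx1-negative cells. In none of the 3 comparisons did the libraries of the groups overlap. Fn1 changed by -1.01 ± 0.047 with Dlx2 (adjusted p = 1.34e-14), differed by -0.57 ± 0.088 in day-8 Msx1-positive cells (adjusted p = 7.75e-05) and by 0.99 ± 0.088 in day-16 Msx1-positive cells (adjusted p = 3.03e-07). The change of that difference between the days, 1.56 ± 0.12, was called (adjusted p = 6.94e-07). ES libraries held 1883 and 1717 CPM of Fn1. Against them, Fn1 was higher by 0.76 ± 0.088 in day-16 Msx1-positive cells (adjusted p = 2.17e-06) and differed by -0.7 ± 0.087 in day-8 Msx1-positive cells (adjusted p = 6.21e-06). In Msx1-negative cells it differed from ES by -0.14 ± 0.087 at day 8 (adjusted p = 0.265) and by -0.23 ± 0.087 at day 16 (adjusted p = 0.0378); the day-16 call was lost in 6 of the alternatives run, with adjusted p between 0.0531 and 0.264. Counts per gene do not resolve the splice forms of fibronectin.

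Per kilobase of exon, Fn1 averaged 260 CPM in day-16 Msx1-positive cells, ahead of Tnc at 190 and Postn at 136, the next in order. Its share of the summed per-kilobase level of the members was 97.2% and 97.3% in the libraries labelled ES, 44.6% and 45.7% in day-8 Msx1-positive cells, and 29.6% and 27% in day-16 Msx1-positive cells. In Msx1-negative cells it was 74.7% and 74.5% at day 16 and 95.5% and 95.4% at day 8. Postn lay behind 6 other members per kilobase in day-8 Msx1-positive cells, at 8.42, and ahead of all but Fn1 and Tnc at day 16. Together the 10 genes took 0.851% and 0.761% of all counts in day-16 Msx1-positive libraries, against 0.183% and 0.19% in Msx1-negative libraries.

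Lox, at chr18:52516067-52529867 on the minus strand, encodes the founding lysyl oxidase, which acts on fibrillar collagen and elastin. It stood at 299 and 312 CPM in day-16 Msx1-positive cells, against 3.99 and 4.87 CPM in Msx1-negative cells. At day 8 it stood at 14.8 and 15.4 CPM in Msx1-positive cells, against 0.292 and 0.259 CPM in Msx1-negative cells. The Msx1-negative level was 1.45% of the Msx1-positive level at day 16 and 1.82% at day 8, and that of Msx1 itself was 1.01% and 3.32%. Lox was higher in Msx1-positive cells by 6.1 ± 0.09 at day 16 (adjusted p = 1.72e-15) and by 5.76 ± 0.14 at day 8 (adjusted p = 1.88e-13). The change of the difference was 0.34 ± 0.26, with an interval from -0.17 to 0.84, and was not called (adjusted p = 0.402). At day 2 Lox was the one member among the lysyl oxidases that rose with Dlx2. It had 76 and 65 counts in Dlx2 EBs, against 5 and 8 in GFP EBs, a change of 2.75 ± 0.42 (adjusted p = 4.45e-06). In ES libraries it had 6 and 4 counts.

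Loxl1, at chr9:58287738-58313186 on the minus strand, encodes the enzyme most tied to elastic fibres, and mice without it have defects of elastic tissue. Loxl1 stood at 239 and 243 CPM in day-16 Msx1-positive cells, against 15.2 and 19.1 CPM in Msx1-negative cells, and at 63.3 and 69 against 7.66 and 9.09 CPM at day 8. Loxl3, at chr6:83034173-83052562 on the plus strand, encodes a paralog needed in mice for the palate and the spine. Per kilobase of exon it was the least abundant of the 4 lysyl oxidase members in Msx1-positive cells. Loxl3 stood at 52.5 and 47.6 CPM in day-16 Msx1-positive cells, against 3.27 and 2.54 CPM in Msx1-negative cells. At day 8 it stood at 10.2 and 11.6 against 1.33 and 1.24 CPM. Both genes were higher in Msx1-positive cells on both days, with no overlap of the libraries, and for both the gap widened. Loxl1 differed by 3.81 ± 0.1 at day 16 (adjusted p = 1.28e-12) and by 2.98 ± 0.11 at day 8 (adjusted p = 3.07e-11), a change of 0.82 ± 0.14 (adjusted p = 0.000628). Loxl3 differed by 4.1 ± 0.13 at day 16 (adjusted p = 1.75e-12) and by 3.08 ± 0.15 at day 8 (adjusted p = 1.93e-10), a change of 1.02 ± 0.2 (adjusted p = 0.0015).

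Loxl2, at chr14:69609068-69695834 on the plus strand, encodes an enzyme that crosslinks basement membrane collagen and has been described in the nucleus as well. Loxl2 was the member with the smallest gap between the fractions at day 16 after Fn1. It stood at 341 and 365 CPM in day-16 Msx1-positive cells, against 111 and 111 CPM in Msx1-negative cells, and at 58.9 and 56.5 against 10.8 and 7.93 CPM at day 8. Loxl2 thus lay higher in day-16 Msx1-negative than in day-8 Msx1-positive libraries, which was true of no other member but Fn1; that pair of groups was not tested. Loxl2 was higher in Msx1-positive cells by 1.67 ± 0.092 at day 16 (adjusted p = 3.21e-09) and by 2.61 ± 0.11 at day 8 (adjusted p = 1.95e-10), and the gap fell by 0.95 ± 0.14 (adjusted p = 0.000185).

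At day 2 neither Loxl1, Loxl2 nor Loxl3 was called. Loxl1 stood at 5.49 and 5.21 CPM in Dlx2 EBs, against 4.63 and 5.25 CPM in GFP EBs, a change of 0.12 with an interval from -0.2 to 0.44. Loxl2 stood at 8.09 and 7.49 against 8.89 and 7.88 CPM, a change of -0.1 with an interval from -0.37 to 0.16, and Loxl3 at 1.5 and 1.48 against 1.99 and 1.58 CPM, a change of -0.26 with an interval from -0.83 to 0.3. Their adjusted p-values were between 0.439 and 0.547. For Loxl1 and Loxl2 the libraries of the EB groups overlapped.

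The make-up of the transcripts of the 4 lysyl oxidase members differed with stage and fraction. Loxl4, a further lysyl oxidase gene, is not a member and is left out of these sums and shares. Per kilobase, Loxl4 averaged 0.58 CPM in ES, 2.4 CPM in Dlx2 EBs and 3.93 CPM in GFP EBs. It averaged 2.93 against 0.506 CPM in Msx1-positive and Msx1-negative cells at day 8, and 4.69 against 0.779 CPM at day 16. Summed per kilobase, the 4 genes reached 209 and 217 CPM in day-16 Msx1-positive cells, against 26.7 and 28 CPM in Msx1-negative cells, and 35.4 and 37.1 against 4.68 and 4.55 CPM at day 8. Lox made up 0.799% and 0.578% of that sum in the libraries labelled ES, 8.74% and 8.71% in day-8 Msx1-positive cells, and 29.9% and 30.1% in day-16 Msx1-positive cells. Loxl1 made up 70.4% and 67%, 54.2% and 56.3%, and 34.6% and 34% in the same 3 groups. In day-16 Msx1-negative cells, by contrast, Loxl2 held 76.9% and 73.6% of the sum and Lox 3.13% and 3.65%. The shares of Lox and Loxl1 differed less within each of the groups just named than between them. An exact permutation test of 2 against 2 libraries cannot go below p = 0.333, so they were not tested.

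**Figure D3:**
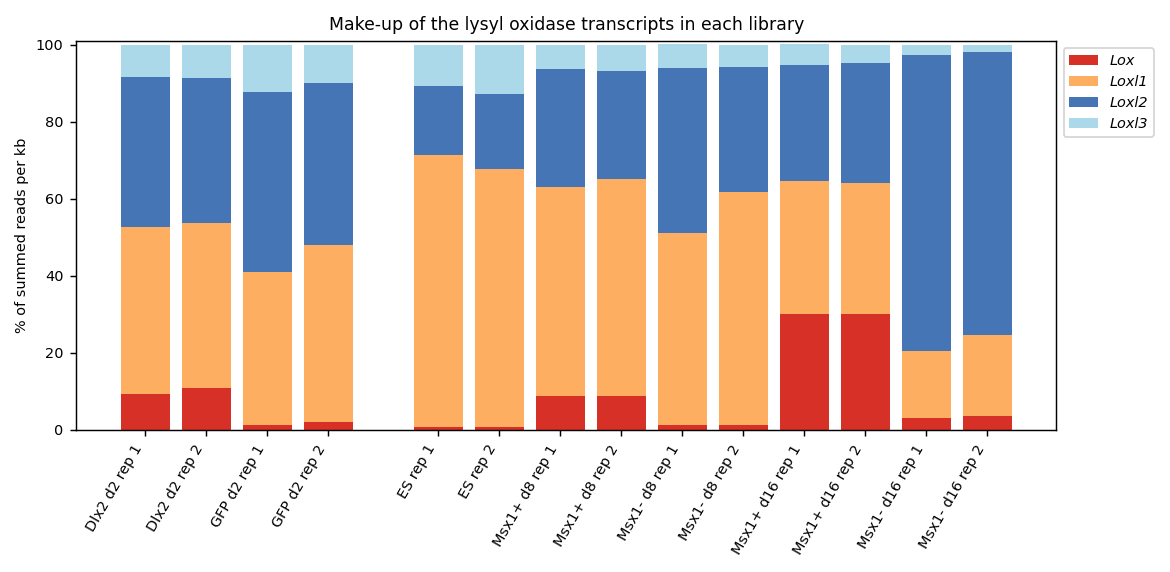
Share of Lox, Loxl1, Loxl2 and Loxl3 in their summed reads per kilobase of exon (y axis, %), with a stacked bar for each library. Loxl4 is not included. The Lox share is highest in the day-16 Msx1-positive bars, at 29.9% and 30.1%, and Loxl2 fills most of the day-16 Msx1-negative bars at 76.9% and 73.6%.

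Fbn1 and Fbn2 encode fibrillin-1 and fibrillin-2, and in mouse and human fibrillin-2 is mostly made in the embryo while fibrillin-1 persists in the adult. Fbn1 lies at chr2:125300594-125507993 and Fbn2 at chr18:58008623-58210487, both on the minus strand, and Fbn2 lies 5.48 Mb from Lox. Among the 9 members tested at day 2 with the filter used, they rose most with Dlx2. Fbn1 stood at 91.1 and 86.3 CPM in Dlx2 EBs, against 7.51 and 5.17 CPM in GFP EBs. Fbn2 stood at 68.7 and 67 CPM in Dlx2 EBs, against 5.97 and 6.58 CPM in GFP EBs. Both groups were far apart, with changes of 3.81 ± 0.11 for Fbn1 (adjusted p = 1.36e-18) and 3.43 ± 0.091 for Fbn2 (adjusted p = 5.74e-19).

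Among the sorted cells, both fibrillins were higher in the Msx1-positive than in the Msx1-negative fraction at days 8 and 16. Fbn1 stood at 499 and 421 CPM in day-16 Msx1-positive cells, against 20.6 and 24.4 CPM in Msx1-negative cells, and at 215 and 281 against 9.8 and 11.1 CPM at day 8. Fbn2 stood at 976 and 831 CPM in day-16 Msx1-positive cells, against 36.5 and 41.5 CPM in Msx1-negative cells, and at 231 and 301 against 9.48 and 8.52 CPM at day 8. The fractions did not overlap on either day. Fbn1 differed by 4.35 ± 0.17 at day 16 (adjusted p = 2.99e-07) and by 4.57 ± 0.18 at day 8 (adjusted p = 3.74e-07), and Fbn2 by 4.53 ± 0.15 (adjusted p = 2.22e-08) and 4.88 ± 0.16 (adjusted p = 2.89e-08). The change between the days was -0.22 for Fbn1, with an interval from -0.67 to 0.23, and -0.35 for Fbn2, with an interval from -0.75 to 0.05, and neither was called. For Fbn2 it was called at -0.53 without the first day-8 Msx1-positive library (adjusted p = 0.00801) and at -0.37 with no filter on low counts (adjusted p = 0.0126). In ES libraries there were 7.12 and 6.74 CPM of Fbn1 and 2.26 and 1.98 CPM of Fbn2.

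Per kilobase of exon, the ratio of Fbn2 to Fbn1 was 0.291 and 0.269 in the libraries labelled ES, 0.99 and 0.983 in day-8 Msx1-positive cells, and 1.8 and 1.81 in day-16 Msx1-positive cells. In Msx1-negative cells it was 1.62 and 1.56 at day 16 and 0.887 and 0.702 at day 8. Among the sorted libraries the day-16 ratios all lay above the day-8 ones, and at each of these days the Msx1-positive ratios lay above the Msx1-negative ones. At day 2 the ratio was 0.692 and 0.712 in Dlx2 EBs and 0.729 and 1.17 in GFP EBs, a range that takes in that of day 8. The ratio was not tested.

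**Figure D4:**
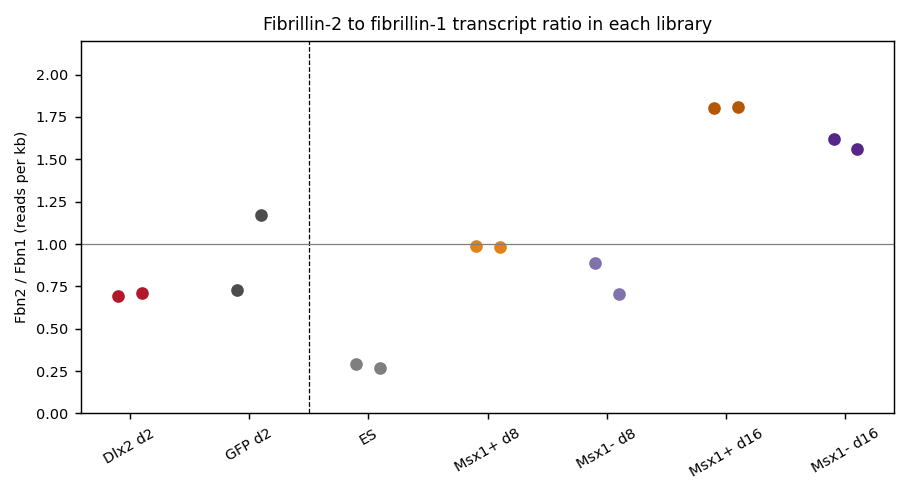
Ratio of Fbn2 to Fbn1 reads per kilobase of exon (y axis) in each of the 14 libraries; the dashed line parts the separately scaled tables and the grey line marks a ratio of 1. The 4 day-16 libraries lie between 1.56 and 1.81, and the 4 day-8 libraries between 0.702 and 0.99.

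Eln, at chr5:134702593-134747323 on the minus strand, encodes tropoelastin, the soluble monomer of elastin. Per kilobase of exon it was the least abundant of the elastic fibre members in Msx1-positive cells. Eln stood at 108 and 89 CPM in day-16 Msx1-positive cells, against 4.07 and 3.91 CPM in Msx1-negative cells, and at 20.7 and 21.4 against 2.61 and 2.85 CPM at day 8. Its gap was 4.62 ± 0.11 at day 16 (adjusted p = 6.94e-14) and 2.95 ± 0.11 at day 8 (adjusted p = 1.7e-11), and the change of 1.67 ± 0.16 was the largest widening among the members (adjusted p = 1.87e-06). With Dlx2 at day 2, Eln had 134 and 115 counts, against 43 and 36 with GFP, a change of 0.99 ± 0.24 (adjusted p = 0.000999). The libraries labelled ES held 6.25 and 4.67 CPM of Eln, above both Msx1-negative groups. Eln was lower in both than in ES, with -0.45 ± 0.14 in day-16 Msx1-negative cells (adjusted p = 0.011) and -1 ± 0.15 in day-8 Msx1-negative cells (adjusted p = 4.37e-05). The day-16 call was lost without the first ES library (-0.23, adjusted p = 0.239), without the second Msx1-negative library (-0.42, adjusted p = 0.0604) and in a fit of the 4 compared libraries alone (-0.42, adjusted p = 0.0765).

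The change of the difference between the fractions was called upward for 4 of the 10 members and downward for 2, beside 10.3% and 18.3% of all genes. Upward, toward a wider gap or a turned sign, went Eln, Fn1, Loxl3 and Loxl1, and downward Tnc and Loxl2. Postn changed by -1.54 ± 0.48 (adjusted p = 0.0578), and the value rested on the day-8 Msx1-negative libraries: it was -3.71 without the first (adjusted p = 7.22e-06) and -0.76 without the second (adjusted p = 0.0195). With library size alone as the scale, 15.5% in place of 35.9% of the called changes were upward, and the median over all genes was -0.28 in place of -0.097. The same 4 members up and 2 down were called then, and Postn too was called lower, by -1.73 (adjusted p = 0.044).

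Most members rose with time in both fractions. In Msx1-positive cells all 10 were higher at day 16 and none was lower, beside 21.1% and 24.8% of all genes, with a median change of 2.21 against -0.034 over all genes. In Msx1-negative cells 9 of 10 were higher and none was lower, beside 19.7% and 17.8% of all genes, with a median of 1.64 against 0.012. Library size as the scale made 34.7% in place of 46% of the calls in Msx1-positive cells and 62.9% in place of 52.5% in Msx1-negative cells higher, and left the members' calls as they were. In Msx1-positive cells the largest changes were those of Lox, 4.33 ± 0.078 (adjusted p = 5.82e-14), and Postn, 4.02 ± 0.18 (adjusted p = 3.19e-06), and the smallest was that of Fbn1, 0.89 ± 0.15 (adjusted p = 0.00208). In Msx1-negative cells Tnc rose by 5.59 ± 0.12 (adjusted p = 4.79e-13), Lox by 4 ± 0.17 (adjusted p = 2.59e-10) and Loxl2 by 3.56 ± 0.11 (adjusted p = 4.29e-11). Postn rose by 5.56 ± 0.34 there (adjusted p = 2.43e-05), and by 7.73 or 4.79 without the first or the second day-8 library. Fn1 was the member that did not pass the test in Msx1-negative cells, at -0.1 with an interval from -0.27 to 0.07 (adjusted p = 0.437), while it rose by 1.46 ± 0.089 in Msx1-positive cells (adjusted p = 1.34e-08). Between the days the mesenchyme markers rose too, 8 of 8 in each fraction, as did 6 of 6 smooth muscle markers in each. The smooth muscle markers summed to 1099 to 1169 CPM at day 16 and 25.5 to 25.8 CPM at day 8 in Msx1-positive cells. Acta2 alone had 126190 counts at day 16 and 1407 at day 8 over these libraries. All 10 extraembryonic endoderm markers rose in Msx1-negative cells, where they summed to 824 to 849 CPM at day 16 and 149 to 151 CPM at day 8, and in Msx1-positive cells 7 of them rose and 2 fell. The part of these cell types was not tested.

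**Figure D5:**
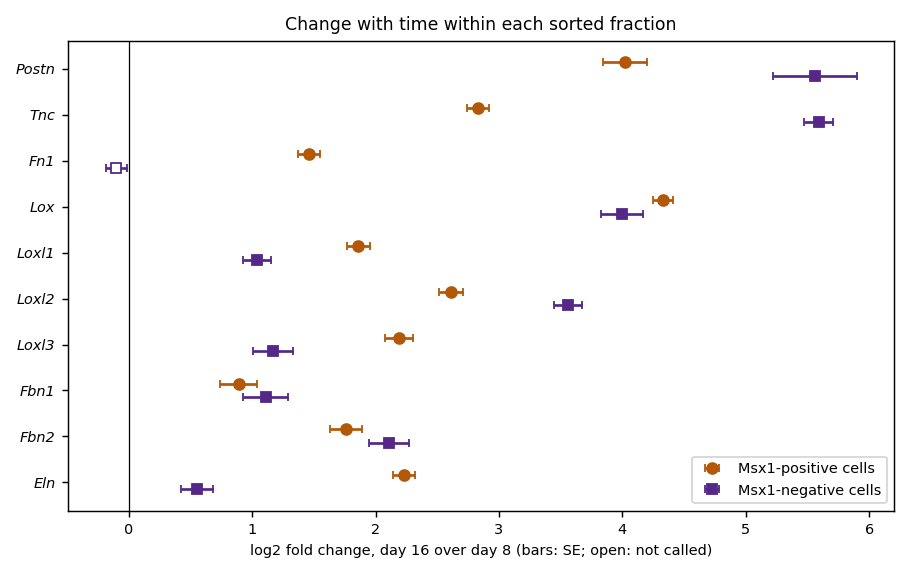
Log2 change between day 8 and day 16 (x axis, day 16 over day 8, bars are SE) for each gene in Msx1-positive (circles) and Msx1-negative cells (squares), 2 libraries a group. Tnc and Loxl2 lie further right in Msx1-negative cells, at 5.59 and 3.56, and Fn1 in Msx1-negative cells is the open symbol at -0.1.

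Against the libraries labelled ES, which held 219 and 222 CPM of Dlx2, 10 members were higher and none lower in day-16 Msx1-positive cells, beside 37.3% and 33.7% of all genes, and 9 were higher and 1 lower in day-8 Msx1-positive cells, beside 34.6% and 26.9%. In day-16 Msx1-negative cells 8 were higher and 2 lower, beside 28.5% and 24.5%, and in day-8 Msx1-negative cells 6 were higher and 1 lower, beside 19% and 14.5%. The 6 were Tnc, Lox, Loxl1, Loxl2, Fbn1 and Fbn2. The calls for Fbn1 (0.59 ± 0.19, adjusted p = 0.0459), Loxl1 (0.33 ± 0.12, adjusted p = 0.0444) and Lox (1.49 ± 0.41, adjusted p = 0.00993) were each lost when 1 library was left out: without the second ES library they stood at 0.56 (adjusted p = 0.192), 0.25 (adjusted p = 0.263) and 1.24 (adjusted p = 0.105). Loxl3 was not called there (-0.31, adjusted p = 0.214). Among the sorted groups and ES, 6 members had 1 order of level: Postn, Tnc, Lox, Loxl1, Fbn1 and Fbn2. The order was day-16 Msx1-positive, day-8 Msx1-positive, day-16 Msx1-negative, day-8 Msx1-negative, then ES. How many of all genes share this order was not counted. By mean level the mesenchyme markers had it too, except Pdgfra, at 147 CPM in day-16 Msx1-negative and 125 CPM in day-8 Msx1-positive cells. Loxl2 had day-16 Msx1-negative cells ahead of day-8 Msx1-positive ones, Loxl3 and Eln had ES ahead of 1 and of both Msx1-negative groups, and Fn1 had ES second and day-8 Msx1-positive cells last. The libraries of neighbouring groups in these orders did not overlap, and the share of all genes of which this holds was not counted. Postn and Loxl3 in day-8 Msx1-negative cells did not pass the test against ES. Nor did Fn1, which also did not pass it between the days in Msx1-negative cells.

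Across the 10 libraries of that table, log2 CPM of the members other than Fn1 correlated with Pearson's r from 0.689 (Loxl2 with Eln) to 0.988 (Loxl1 with Loxl3) over their 36 pairs, while Fn1 had r from 0.165 to 0.509 with them. The libraries fall into 5 groups of 2, so these values describe the spacing of the groups. Among 15099 genes with a mean of at least 1 CPM, Loxl3 ranked 160 by r for Loxl1, and Eln ranked 4587 for Loxl2. The best rank of 1 member for another was 71, that of Loxl1 for Loxl3. Other genes thus lay nearer to each member than any fellow member did. The genes most like each member by the same measure, among those 15099, were as follows. For Loxl1 they were Twist1 (r = 0.9988), a transcription factor of head mesenchyme, then Nr3c1 and Cyth3. For Lox they were Lamp2, Pdzrn3 and Hic1, and for Fbn1 they were Zfp618, Ltbp3 (0.9982), which encodes a fibrillin-associated binding protein of latent TGF-beta, and Trim35. For Fbn2 they were Nck2, Dchs1 and Zfp523, for Postn Mmgt2, Camk2d and Plpp6, and for Tnc Ppp2r2b, Slc25a24 and Rnf130. For Loxl2 they were Mical2, Tmem9b and Dap, for Loxl3 Psd, Hunk and Dync1li2, and for Eln Ccdc102a, Ppp1r18 and Tcf25. The nearest genes to Fn1, Eda2r (0.9758), R74862 (0.9673) and Efs (0.9456), were less alike than those of the other members.

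Other genes of the same structures were followed by lists, which were also chosen with earlier results of these data known. Over all genes tested, 34.1% rose and 33% fell with Dlx2 at day 2, and in Msx1-positive cells 30.4% were higher and 24.3% lower at day 8, and 31.1% higher and 31% lower at day 16. The median change over all genes was 0.024 at day 2, 0.062 at day 8 and -0.016 at day 16. Of 15 partners in elastic fibre assembly (fibulins, MFAPs, LTBPs and emilins), 10 rose and 4 fell with Dlx2, and in Msx1-positive cells 13 were higher with 2 lower on both days. The median change of this list was 1.17 at day 2, 2.95 at day 8 and 3.15 at day 16. Fbln5, whose protein fibulin-5 tethers elastin to cells and microfibrils, stood at 48 ± 1.6 CPM in Dlx2 EBs and 0.385 ± 0.26 CPM in GFP EBs (SD, n = 2), a change of 6.95 ± 0.17 (adjusted p = 1.95e-19). It stood at 90.4 ± 1.7 CPM in day-16 Msx1-positive and 3.35 ± 0.31 CPM in Msx1-negative cells (4.75 ± 0.098, adjusted p = 2.05e-14). Ltbp3 rose with Dlx2 by 2.79 ± 0.15 (adjusted p = 1.26e-13) and was higher in day-16 Msx1-positive cells by 4.07 ± 0.073 (adjusted p = 5.93e-15). Efemp1, which encodes fibulin-3, had a gap that narrowed by -2.47 ± 0.21 (adjusted p = 5.95e-07).

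Of 19 further matricellular genes, 16 could be tested at day 2, and 8 rose and 8 fell, beside the 34.1% and 33% of all genes. At day 8, 16 of 19 were higher in Msx1-positive cells and none was lower (30.4% and 24.3% of all genes), and at day 16, 15 were higher and 2 lower (31.1% and 31% of all genes). Tnn, which encodes tenascin-N, a relative of tenascin-C, was the partner furthest up in Msx1-positive cells at both days, by 6.95 ± 0.15 at day 16 (adjusted p = 2.64e-14) and 5.23 ± 0.13 at day 8 (adjusted p = 1.77e-13), and it rose with Dlx2 by 3.47 ± 0.36 (adjusted p = 1.87e-08). Tnxb (4.59 ± 0.39, adjusted p = 5.47e-10), the tenascin of skin and tendon, and Smoc2 (3.89 ± 0.25, adjusted p = 4.44e-12) rose with Dlx2 as well, and Tnr (4.76 ± 0.39, adjusted p = 8.98e-08), the tenascin of the nervous system, was higher in day-8 Msx1-positive cells. Thbs1, which encodes thrombospondin-1, a matricellular activator of latent TGF-beta, stood at 1362 ± 23 CPM in day-16 Msx1-positive cells and 97.6 ± 9.6 CPM in Msx1-negative cells (SD, n = 2), having risen since day 8 by 3.41 ± 0.089 (adjusted p = 1.47e-12) and 3.67 ± 0.099 (adjusted p = 3.18e-12). Thbs2 rose by 5.35 ± 0.094 in Msx1-positive cells (adjusted p = 5.82e-14), and its gap widened by 2.76 ± 0.19 (adjusted p = 9.2e-08). Sparc, which encodes osteonectin, stood at 1890 ± 23 CPM in Msx1-positive and 3673 ± 190 CPM in Msx1-negative cells at day 16, and it rose by 3.12 ± 0.063 with time in Msx1-negative cells (adjusted p = 1.45e-13). As background, Sparc is a known product of parietal endoderm; the extraembryonic endoderm markers are given above, and their part was not tested.

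Of 12 genes that prepare collagen for crosslinking (proteinases, lysyl hydroxylases, chaperones and Loxl4), 4 rose and 6 fell with Dlx2 at day 2, the 4 being a share near the 34.1% of all genes. In Msx1-positive cells 11 were higher at day 8 (30.4% of all genes), and 8 were higher and 3 lower at day 16 (31.1% and 31%), where the median change was 0.29 against -0.016 over all genes. Pcolce2, an enhancer of procollagen processing, fell in Msx1-positive cells between the days, to 8.16 ± 0.32 CPM at day 16 against 56.2 ± 0.7 CPM at day 8 (-2.78 ± 0.075, adjusted p = 1.38e-12). Colgalt2, a collagen galactosyltransferase, averaged 3.02 CPM in Msx1-positive against 1.4 CPM in Msx1-negative cells at day 8. At day 16 the order was turned round, at 2.32 against 7.98 CPM. The difference changed by -2.89 ± 0.31 (adjusted p = 6.75e-06). Tll2, a tolloid-like proteinase, was higher in day-8 Msx1-positive cells by 4.76 ± 0.53 (adjusted p = 2.37e-06) on 276 counts over 2 libraries against 6 in Msx1-negative cells. Of 9 receptors for fibronectin and tenascin-C, 3 rose and 4 fell at day 2, close to the 34.1% and 33% of all genes. In Msx1-positive cells 7 were higher with 2 lower on both days, beside 30.4% and 24.3% of all genes at day 8 and 31.1% and 31% at day 16. Itga8, whose integrin binds both ligands, stood at 13.4 ± 1.7 CPM in day-8 Msx1-positive and 0.449 ± 0.0072 CPM in Msx1-negative cells (4.89 ± 0.15, adjusted p = 1.73e-12). It rose with time by 2.53 ± 0.094 in Msx1-positive (adjusted p = 3e-11) and 3.47 ± 0.17 in Msx1-negative cells (adjusted p = 8.46e-10).

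The library kit does not mark strand, and 8 of the 10 members share exon bases with another annotated gene, all but Postn and Loxl1, over 30 bases in Lox to 2442 bases in Fbn1. Of the partners named, Itga8, Ltbp3, Thbs1, Tnr and Tnxb do so as well. Reads from such shared bases cannot be told apart by strand.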

How the data were processed

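RNA was sequenced from total RNA extracted with TRI Reagent, with NEBNext Ultra RNA libraries, per the labels' protocols. The authors deposited 2 tables of raw counts per gene symbol. Per the submitters' processing notes, the tools included HISAT2 2.1.0, fastp 0.20.0 and DESeq2 1.18.1, with build GRCm38. No label or header names the counting program or the annotation. The labels list 18 samples in 9 groups, of which 14 libraries in 7 groups have a column; the uninduced groups were not analysed here. In the day-2 table every symbol sums to 5 or more counts, and 26 of its symbols had become dates.

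Genes were kept by filterByExpr, scaled by TMM and tested with edgeR 4.0.16 (glmQLFit, robust; glmQLFTest, two-sided) in R 4.3.3, with limma 3.58.1: 18650 genes in 4 libraries at day 2, 22294 in the 8 sorted libraries, and 22504 in 10 libraries for comparisons with ES. The SE is the absolute log2 change over the square root of F. Levels of sorted and ES cells come from the last fit. Libraries of a group differed beyond sampling noise (chi-square per degree of freedom from 4.4 to 20.2). The scripts were tested on simulated data. Alternatives were other scalings, filters, DESeq2 1.42.0, a replicate block, fits of the compared libraries alone and leaving out each library.

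Named were all 10 members, the 5 called partners with the largest change per comparison, and the 3 genes most like each member in log2 CPM with a prior count of 1; those in the text are a subset. The members and lists were chosen with earlier results of these data known. Positions and exon lengths are from GENCODE vM21 on GRCm38, by symbol. Intervals (95%) of log2 changes were formed from the SE, so they take in the spread between these libraries. They use a normal distribution and can be narrower than intervals of the test itself. The counting interval of Postn at day 2 and the floor of 3 counts cover counting error only.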

Additional observations from a re-analysis of the deposited data

Results flagged for a closer look

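For 6 genes the difference between Msx1-positive and Msx1-negative cells changed between day 8 and day 16 by a test of that change itself (edgeR's interaction contrast, adjusted over 22294 genes). The log2 difference grew for Eln by 1.67 (adjusted p = 1.87e-06), for Loxl3 by 1.02 (adjusted p = 0.0015) and for Loxl1 by 0.82 (adjusted p = 0.000628). For Fn1 it changed by 1.56 (adjusted p = 6.94e-07) and turned its sign. It changed by -2.76 for Tnc (adjusted p = 1.37e-08) and by -0.95 for Loxl2 (adjusted p = 0.000185). Groups of 2 libraries do not allow a test for a library that stands apart.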

How the results depend on the processing

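Over the alternatives run, 1075 of 1109 member changes kept their direction and call, 22 lost the call, 11 gained it and 1 reversed; of 336 counts, 327 stayed within 1.5 times and 9 moved. Outside Msx1-negative against ES, none of 890 lost a call. Postn at day 2 is not among these changes, since the main fit did not test it. The reversal was Loxl2 at day 2, at 0.07 with library size scaling (adjusted p = 0.66), against -0.1 with TMM. In day-8 Msx1-negative cells against ES, members called higher were 3 to 5 without 1 library (6 with all), and members called lower were 2 in a fit of the compared libraries alone (1 otherwise), where Fn1 was called at -0.13 (adjusted p = 0.0204). In day-16 Msx1-negative cells against ES, members called lower (2 with all) were 1 with at least 1 CPM in 2 libraries, with the compared libraries alone, with library size scaling and with the replicate block, and 0 to 2 without 1 library. The causes were not tested. Replicate numbers share only a number: deviations of same-numbered libraries correlated from -0.034 to 0.035, and 127 of 129 results kept direction and call with the replicate block, 1 call being lost (Fn1, day-16 Msx1-negative against ES, -0.23, adjusted p = 0.0531). Depth limits Postn, Tnc and Lox where counts are below about 10 per library.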
